A study of Mus musculus with 10 samples.

Results

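Gal-3+ macrophages of dystrophic muscle were set against both other sorted macrophage populations of this series, skeletal muscle-resident macrophages (SkMRMs) and monocyte-derived macrophages (MDMs). The members described are the genes for which all 4 gal-3+ libraries lay above, or all 4 lay below, all 6 other libraries. Of the 17001 genes in the table, 938 lay above and 938 lay below, which is 5.52% in each direction. Bulk RNA was sequenced from 10 libraries of macrophages sorted by FACS from hindlimb muscle at 4 weeks of age. SkMRMs came from C57BL/10 wild-type (WT) mice (3 libraries, WT1 to WT3). Gal-3+ macrophages (4 libraries, mdx1, mdx3, mdx4 and mdx5) and MDMs (3 libraries, mdx1, mdx4 and mdx5) came from B10.mdx mice, a C57BL/10 strain that lacks dystrophin. The mdx mutation is in every cell of these animals, so strain and population cannot be told apart in the comparison with SkMRMs, whereas gal-3+ macrophages and MDMs share the mdx genotype. The labels call the libraries biological replicates and do not say whether each came from 1 mouse or a pool, and p-values measure the spread between these libraries.

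Galectin-3 is a lectin that binds galactose-containing glycans, and macrophages make it as they mature and take up cell debris. Dystrophic muscle fibers break and regenerate repeatedly, and the macrophages that clear them load their lysosomes with protein, membrane lipid and nucleic acid. Macrophages in such tissues are known for a state with lipid-handling genes (*Apoe*, *Trem2*, *Gpnmb*) and lysosomal enzymes, and some of them also display peptides on MHC class II molecules.

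The values are counts per gene divided by 1 size factor per library. Library depth was 23575186 to 40307596 reads in gal-3+ macrophages, 24323114 to 75907638 in SkMRMs and 22395027 to 29186317 in MDMs. Values are listed below in the order mdx1, mdx3, mdx4 and mdx5 for gal-3+ macrophages, WT1 to WT3 for SkMRMs, and mdx1, mdx4 and mdx5 for MDMs. Gal-3+ cells had been sorted as gal-3 high and Folr2 low, and CD52 marks MDMs. *Lgals3*, which encodes galectin-3, had 44141, 40684, 45826 and 44141 normalized counts in gal-3+ macrophages, 4049, 4559 and 3907 in SkMRMs and 40211, 51278 and 47228 in MDMs, so the gal-3+ libraries lay above SkMRMs and within the range of MDMs (log2 difference from MDMs -0.08, limma adjusted p = 0.51). *Folr2*, a folate receptor, was intermediate at 2278 to 2759 in gal-3+ macrophages between 80.6 to 152 in MDMs and 14326 to 14719 in SkMRMs, and *Cd52* was intermediate in the opposite order (93.3 to 146 in SkMRMs, 1767 to 2044 in gal-3+ macrophages and 3523 to 4249.7 in MDMs). Of 16 macrophage identity genes, 7 lay above all others (43.8%), among them *Adgre1*, which encodes F4/80 (24372 to 27278 against 11264 to 13919). The costimulatory gene *Cd86* lay below (6.25%, near the 5.52% of all genes). The call of *Adgre1* (log2 difference 1.02) was lost under upper-quartile scaling (0.98) and without gal-3+ mdx4 (0.998) or MDM mdx4 (0.996).

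Sex-linked transcripts, looked at after the values were seen, differed between libraries. *Xist*, expressed from the inactive X chromosome, had 6437, 1878 and 23983 normalized counts in SkMRMs, was listed at 0 in all 4 gal-3+ libraries, and had 4.74, 0 and 0 in MDMs. The Y-linked gene *Ddx3y* was listed at 0 in SkMRM WT3 and lay between 1921 and 3331 in the other 9 libraries, and *Eif2s3y*, *Kdm5d* and *Uty* were lowest in SkMRM WT3 as well. The sex of the mice is not given in the sources used here, and its part in differences from SkMRMs was not tested. SkMRM WT1 and WT2 held both *Xist* and *Ddx3y*, so the SkMRM group without WT3 still holds *Xist*. Without SkMRM WT3, 1020 genes lay above and 1015 below all remaining libraries, 488 were called higher and 628 lower by the contrast described next, and 87 and 126 against both populations.

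The contrast of gal-3+ macrophages with the equal-weight mean of SkMRMs and MDMs called 537 genes higher (3.16% of 17001) and 798 lower (4.69%), at a fold of at least 2 and a limma adjusted p under 0.01 on log2(normalized count + 1), which shrinks the difference of genes with low counts. Its median over all genes was -0.02. On recovered reads the edgeR quasi-likelihood test called 608 higher and 581 lower, and DESeq2 called 619 higher and 960 lower, so the split between directions depended on the tool. A gene can pass this contrast through 1 population alone, so genes called against SkMRMs and also against MDMs were counted as well: 103 were higher (0.606%) and 173 lower (1.02%) than each. Of the 938 genes above all others, 270 were called higher and 102 were called against both populations. Of the 938 below, 380 were called lower and 165 against both. A member had to lie apart from both populations, so these shares of called members follow partly from how members were chosen. Of the 537 genes called higher, 267 were not members, because at least 1 library of SkMRMs or MDMs was not below the lowest gal-3+ library. Some of these genes were lower than in 1 whole population. *Cd52* (1767 to 2044 in gal-3+ macrophages, 3523 to 4249.7 in MDMs) and *Apoc2* (827 to 939.9 and 2773 to 2933) passed because SkMRMs were far lower (log2 differences 4.01 and 5.99).

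Most members differed by less than a fold of 2 from the nearer population. The median log2 difference from the nearer population mean was 0.47 for members above and -0.75 for members below, and 147 and 367 members reached a fold of 2. MDMs were the nearer population for 523 of the members above and 600 of the members below. Just inside the rule, the lowest gal-3+ library of *Fam149b* had 457.453 and the highest other library 457.383, and *Eif4ebp2* (988 against 987) and *Dpysl2* (7428 against 7424) were as close. Just outside it lay *Ccndbp1* (787.013 against 787.171), *Glg1* and *Vwa5a*. At the other edge, *Chkb*, *Prkag2* and *Qpct* were just inside the genes below (696.148 in the highest gal-3+ library against 696.353 in the lowest other for *Qpct*), and *Isca1* (794.874 against 794.826) and *Eea1* just outside. *Xist* was the third gene just outside, at 0 in gal-3+ libraries and also at 0 in MDMs mdx4 and mdx5.

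The 5 genes listed as markers of gal-3+ macrophages for this comparison all lay above all other libraries. They were not chosen independently of these data, so their order and p-values are a description and not a test. *Apoe* encodes apolipoprotein E, which carries cholesterol out of macrophages, and lies on chromosome 7 from 19696109 to 19699188 (mm10, minus strand). It had 560947, 644173, 711845 and 751880.0 normalized counts in gal-3+ macrophages, 223904, 227472 and 187206 in SkMRMs and 160618, 140062 and 155281 in MDMs, a log2 difference of 1.89 ± 0.10 (SE, limma adjusted p = 4.6e-10) from the mean of the other populations. *Hexa*, the alpha subunit of the lysosomal enzyme that removes terminal hexosamines from gangliosides, had 17819, 17793, 21309 and 19526 normalized counts in gal-3+ macrophages, 11282, 12224 and 11165 in SkMRMs and 9895, 9369.5 and 9288 in MDMs. Its lowest gal-3+ library exceeded the highest SkMRM library by less than a fold of 2, and a log2 difference of 0.86 ± 0.06 (SE, limma adjusted p = 2.0e-08) did not reach the fold used for calls. *Cd72*, an inhibitory C-type lectin best known from B cells, had 2203, 1675, 1851 and 1837 normalized counts in gal-3+ macrophages, 504, 321 and 487 in SkMRMs and 164, 185 and 153 in MDMs, a log2 difference of 2.81 ± 0.13 (SE, limma adjusted p = 1.2e-10). *Mfge8* encodes a secreted protein that bridges phosphatidylserine on dying cells to integrins. It had 3747, 4077, 4629.7 and 3501 normalized counts in gal-3+ macrophages, 1771, 1369.8 and 925 in SkMRMs and 397, 453 and 498 in MDMs, with a log2 difference of 2.37 ± 0.14 (SE, limma adjusted p = 1.2e-09), and SkMRM WT1 was the closest other library. *Cadm1*, an immunoglobulin-family adhesion molecule, had 739, 829.5, 832 and 906 normalized counts in gal-3+ macrophages, 344, 339 and 232 in SkMRMs and 133, 54.9 and 38.7 in MDMs, a log2 difference of 2.54 ± 0.25 (SE, limma adjusted p = 7.6e-07). For *Apoe*, *Cd72*, *Mfge8* and *Cadm1* the MDMs were the lowest population, and all 4 genes were called higher against each population alone.

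**Figure D1:**
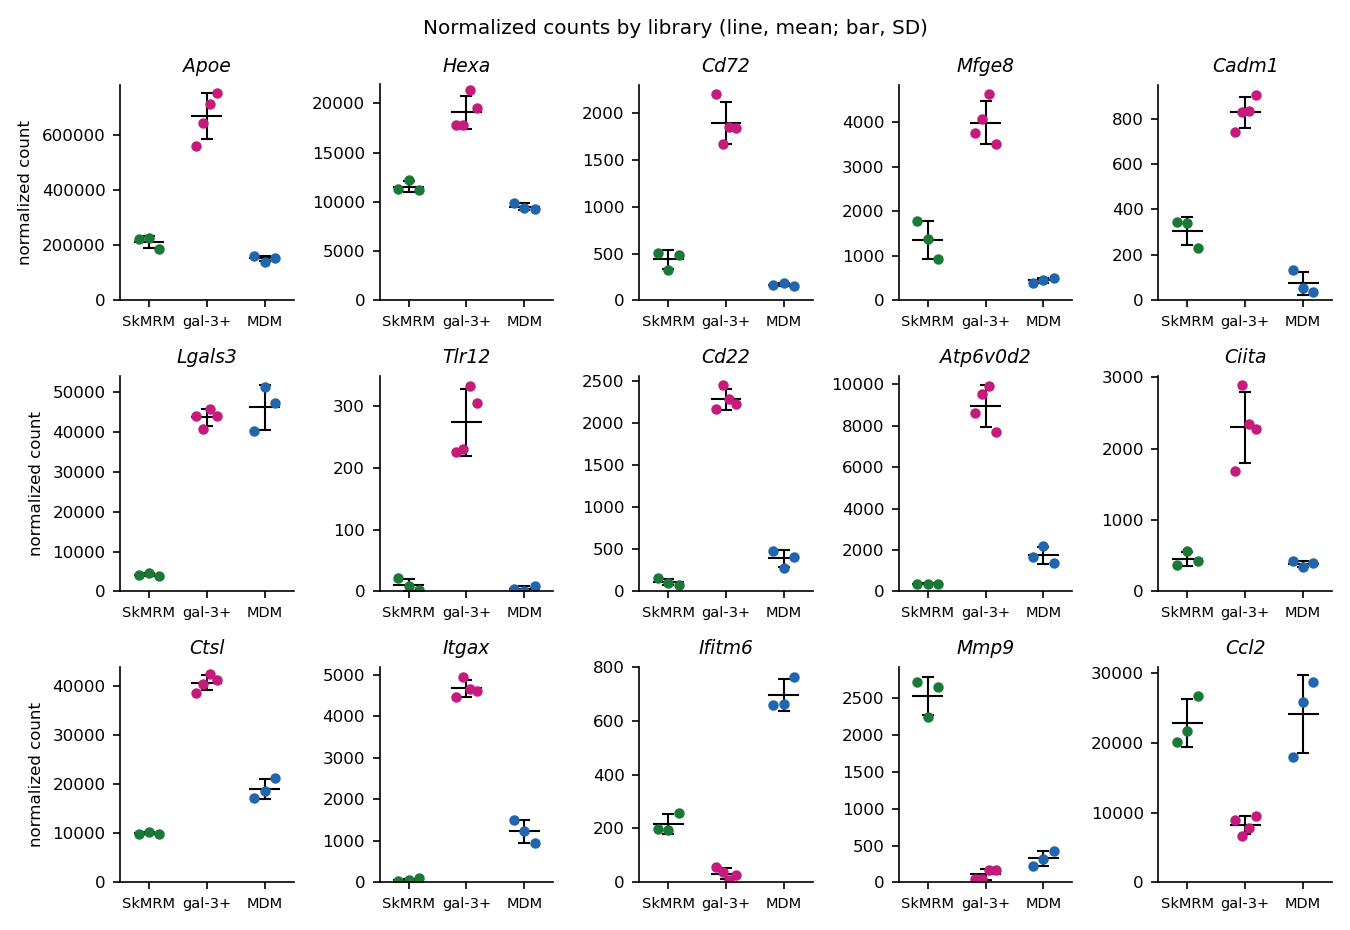
Normalized counts (vertical axes, linear, from 0) of 15 genes in the 3 SkMRM, 4 gal-3+ and 3 MDM libraries. Points are libraries, horizontal lines are means and bars are SDs. Gal-3+ libraries lie above all others for 11 of the genes, below all others for *Ifitm6*, *Mmp9* and *Ccl2*, and within the MDM range for *Lgals3*.

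Neighbours of *Apoe* in the apolipoprotein cluster did not share its order. *Apoc1* (chromosome 7 from 19689481 to 19692660) had 43.9 to 60.02 in gal-3+ macrophages, 3.50 to 18.8 in SkMRMs and 142 to 226 in MDMs. *Apoc2* (chromosome 7 from 19671579 to 19677941) had 827 to 939.9, 4.67 to 21.7 and 2773 to 2933 in the same order. Both encode C apolipoproteins that act on lipoprotein metabolism, both were highest in MDMs, and both were picked for their place beside *Apoe* after their values were seen.

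**Figure D2:**
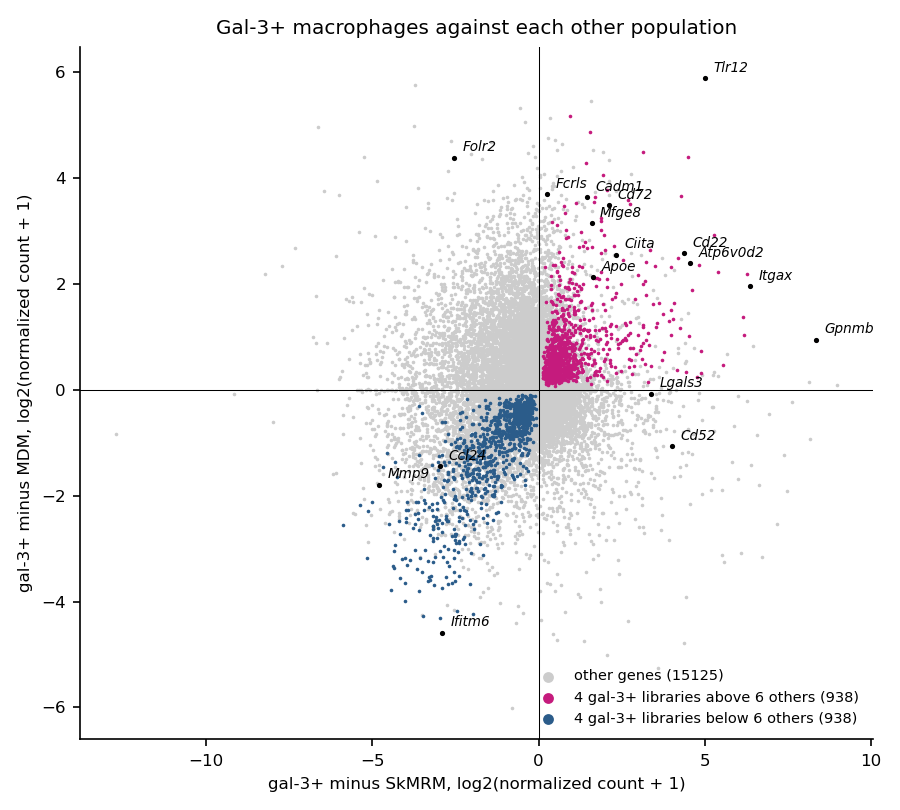
Log2 difference of gal-3+ macrophages from SkMRMs (horizontal axis) and from MDMs (vertical axis) for 17001 genes on log2(normalized count + 1). Colored points are the 938 genes above and the 938 below all 6 other libraries, grey points are the others, and black points are labelled genes. *Tlr12* lies farthest from the nearer population among the labelled genes above, *Ifitm6* is the labelled gene lowest against MDMs, and *Lgals3*, *Folr2* and *Cd52* lie outside the members.

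Among members above with a mean of at least 100 normalized counts, *Tlr12* had the largest difference from the nearer population. *Tlr12* encodes a Toll-like receptor that recognizes profilin of apicomplexan parasites in mice, and lies on chromosome 4 from 128615443 to 128618619. It had 226, 231, 333 and 306 normalized counts in gal-3+ macrophages, 21.0, 8.54 and 1.80 in SkMRMs and 3.16, 1.276 and 9.39 in MDMs, and its log2 differences were 5.02 from SkMRMs and 5.88 from MDMs (larger limma adjusted p = 1.2e-05). All 6 other libraries were close to 0 beside the 4 gal-3+ libraries. *Pianp*, a ligand of the paired receptor PILR-alpha, had 676 to 852 in gal-3+ libraries and at most 147 elsewhere. *Vipr1*, a receptor of vasoactive intestinal peptide, had 176, 223, 301 and 287 normalized counts in gal-3+ macrophages, 64.2, 22.5 and 28.5 in SkMRMs and 15.8, 11.5 and 45.8 in MDMs. *Cd22*, a sialic acid-binding inhibitory receptor of B cells and microglia, had 2164, 2446, 2289 and 2224 normalized counts in gal-3+ macrophages, 157, 98.6 and 81.9 in SkMRMs and 481, 281 and 413 in MDMs, a difference of 2.57 from MDMs, the nearer population (larger limma adjusted p = 6.2e-08). *Stra6l*, a receptor for retinol-binding protein, had 1008 to 1424 in gal-3+ libraries against 217 to 270.4 in MDMs and 11.7 to 15.9 in SkMRMs. *Mmp12*, the macrophage elastase, had 4287 to 5325 against 811 to 1365 in MDMs and 93.5 to 160.0 in SkMRMs, and *Itgax*, the CD11c subunit of a complement receptor, had 4461 to 4959 against 949.9 to 1513 and 32.7 to 97.1. These 3 genes had the same order, with SkMRMs lowest and MDMs between. The 15 genes with the largest differences were all called higher against each population, and 3 of them, *Tnnt2*, *Myh3* and *Fbxo32*, are better known from muscle fibers.

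Those 3 genes were compared with the muscle markers. *Myh3*, embryonic myosin heavy chain of regenerating fibers, had 747, 505, 774 and 709.8 normalized counts in gal-3+ macrophages, 26.8, 22.5 and 19.1 in SkMRMs and 159.7, 184 and 77.5 in MDMs, and *Tnnt2*, a cardiac troponin also made in immature skeletal muscle, had 192, 164, 330.4 and 392 normalized counts in gal-3+ macrophages, 34.99, 24.8 and 15.9 in SkMRMs and 34.8, 52.3 and 35.2 in MDMs. *Fbxo32*, a ubiquitin ligase of muscle atrophy that other cells also express, had 3729, 4274, 4438 and 3711 normalized counts in gal-3+ macrophages, 437, 363 and 282 in SkMRMs and 928, 661 and 838 in MDMs. *Myog*, a transcription factor of differentiating myoblasts, lay above all others too (327 to 694 against 60.1 to 319). Of 31 muscle fiber and satellite cell markers in the table, *Myh3* and *Myog* lay above all others (6.45%, near the 5.52% of all genes). Of the list, 4 were called higher, beside 3.16% of all genes. The genes of mature fibers had another order, with *Acta1*, chosen like *Ckm* after its values were seen, at 2024 to 3144 in gal-3+ macrophages, 3393 to 5454 in SkMRMs and 492 to 659 in MDMs, and *Ckm* at 365 to 454, 825 to 1313 and 70.4 to 166. Summed over the 31 markers, levels were 13951 to 17136 in gal-3+ macrophages, 18881 to 30838 in SkMRMs and 4850.4 to 5523 in MDMs. The part of muscle RNA in these results was not tested, and in bulk samples more cells of a type and more RNA per cell cannot be told apart.

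Of the 15 members above that lay farthest from the nearer population, 2 were MHC class II genes, *Ciita* and *H2-Aa*. MHC class II molecules present peptides from endosomes to CD4 T cells, *Ciita* encodes the coactivator that switches the genes on, and *Cd74* the invariant chain that guards the peptide groove. Of 11 genes in the list, 7 lay above all others, 0 below, 7 were called higher, and 6 were called against each population, beside 5.52%, 3.16% and 0.606% of all genes. The median log2 difference of the list was 1.83. *Ciita* had 1681, 2897, 2348 and 2279 normalized counts in gal-3+ macrophages, 376, 568 and 426 in SkMRMs and 424, 339 and 396 in MDMs, with a log2 difference of 2.44 ± 0.14 (SE, limma adjusted p = 1.2e-09). *H2-Aa*, the alpha chain of the I-A molecule, had 20148, 23790.2, 20364 and 24332 normalized counts in gal-3+ macrophages, 4448, 6184 and 5544 in SkMRMs and 6788, 3665 and 5499.8 in MDMs, and *H2-Ab1*, its beta chain, had 33856, 37302, 32971 and 42119 normalized counts in gal-3+ macrophages, 7423, 9902 and 9019.5 in SkMRMs and 11751, 7326 and 9831 in MDMs. *H2-Eb1*, the beta chain of I-E, had 19498, 22562, 18627 and 23957 normalized counts in gal-3+ macrophages, 5175, 6325 and 5594 in SkMRMs and 5660.4, 3551 and 4562 in MDMs. In these 4 genes SkMRMs and MDMs overlapped, and every gal-3+ library lay at more than 2 times the highest of them. *Cd74*, named after its values were seen as were the next 2 genes, had 73688 to 89396 against 15375 to 27904. *H2-DMa* and *H2-DMb1*, which encode the peptide editor H2-DM, lay closer to MDMs, with 2308 to 3191 against 1764 to 1943 and 2133 to 2629.6 against 931 to 1149, while SkMRMs had 692 to 719.7 and 450.2 to 660.1. The other 4 genes of the list (*H2-DMb2*, *H2-Oa*, *H2-Ob* and *H2-Eb2*) did not lie apart from the other libraries.

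Dendritic cells and B cells also carry MHC class II, so their markers are given beside it. The study proposes that its single-cell cluster high in *Cd74*, MHC class II genes and *Itgax* represents dendritic cells. *Itgax*, which is not in the dendritic cell list used here, lay above all others (4461 to 4959 against 32.7 to 1513). Of 14 dendritic cell markers, 0 lay above all others, 1 (*Dpp4*, a dipeptidase) lay below (7.14%, near the 5.52% of all genes) and 3 were called lower. Their summed level was 3644 to 4934 in gal-3+ macrophages, 17264 to 19721 in SkMRMs and 3114 to 3259 in MDMs. *Zbtb46*, a transcription factor of classical dendritic cells, had 121 to 182 in gal-3+ macrophages and 61.2 to 601 in the others, *Flt3*, a growth factor receptor, had 26.7 to 77.4 and 2.33 to 111, and *Xcr1*, a chemokine receptor of cross-presenting dendritic cells, had 1.03 to 14.6 and 8.93 to 42.7. Of 6 B cell markers in the table, *Cd79b* lay above all others (120.0 to 207 against 56.4 to 92.1), while *Cd79a* had 0 to 23.6 in gal-3+ libraries and 1.276 to 66.5 in the others, and *Ms4a1* 0 to 3.9 and 3.83 to 26.8. The call of *Cd79b* was lost without gal-3+ mdx4 (log2 difference 0.99) and without mdx5 (limma adjusted p = 0.018). Summed B cell markers were 1211 to 2141 in gal-3+ macrophages, 5520.4 to 6111 in SkMRMs and 1132 to 1339 in MDMs. As sums, both marker lists lay under their SkMRM range in gal-3+ macrophages, dendritic cell markers lay over the MDM range, and their part in the MHC class II result was not tested. *Pax5* was not analysed here. The single genes of this paragraph, *Dpp4*, *Cd79b* and *Itgax* aside, were chosen after their values were seen.

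Stretches of the promoters of 2 of these genes are shown because all 8 MHC class II genes with a promoter sequence hold the letters CCAAT on either strand between 250 bases before and 50 after the start, beside 42.1% of the 11087 genes with a promoter. CCAAT is the core of the Y box, where the factor NF-Y binds MHC class II promoters. It was chosen after the values were seen, and a match is a description of the letters. Capitals mark CCAAT or its reverse complement ATTGG in the 65 bases shown, which lie upstream of the start (RefSeq, GRCm38.p6, 5′ to 3′ on the strand of the gene).
H2-Aa (chr17:34287829-34287893, minus strand): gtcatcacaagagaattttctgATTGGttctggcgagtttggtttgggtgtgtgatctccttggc
H2-Eb1 (chr17:34305786-34305850, plus strand): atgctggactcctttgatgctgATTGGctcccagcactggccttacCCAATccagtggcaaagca
The reverse complement stood 48 bases before the start in *H2-Aa* and 59 in *H2-Eb1*, and *H2-Eb1* also held a forward match. Of the 717 members above with a promoter, 44.2% held CCAAT, close to the share of all genes.

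Lysosomal genes made up 4 lists, each with more genes above than below all other libraries. In the order given below, 62.1%, 47.4%, 38.9% and 33.3% lay above, and 0%, 0%, 11.1% and 2.78% below. Over all genes, 5.52% lay above, 5.52% below, and 3.16% were called higher. The lysosome breaks down sugars, proteins and lipids, with a proton pump that keeps it acid. Of 29 glycosidases and sulfatases, 18 lay above all others, 0 below and 6 were called higher, with a median log2 difference of 0.61. *Galc*, which removes galactose from galactosylceramide of myelin, had 3621, 3539.6, 4197 and 3457 normalized counts in gal-3+ macrophages, 1362, 1580.3 and 1347 in SkMRMs and 1708, 1669 and 1618 in MDMs, so that MDMs lay just above SkMRMs and far below gal-3+ macrophages. *Sgsh*, a sulfatase of heparan sulfate breakdown, had 1448 to 1892 against 585 to 872 in all others, and *Glb1*, the lysosomal beta-galactosidase, had 1683 to 2179 against 999 to 1155 in SkMRMs and 506 to 876 in MDMs. *Galc* and *Sgsh* were called higher against each population, and *Glb1* against MDMs alone (log2 difference 0.78 from SkMRMs). The summed level of the 29 genes was 145701 to 166995 in gal-3+ macrophages, 87507 to 92339 in SkMRMs and 95492 to 96851 in MDMs.

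Of 19 lysosomal proteases in the table, 9 lay above all others, 0 below and 5 were called higher, with a median of 0.59. *Ctsl*, cathepsin L, had 38676, 40413, 42352 and 41274 normalized counts in gal-3+ macrophages, 9927, 10295 and 9838 in SkMRMs and 17099.9, 18652 and 21234 in MDMs, a log2 difference of 1.56 ± 0.06 (SE, limma adjusted p = 2.3e-11). *Ctsb*, cathepsin B, had 311192, 298937, 344737 and 320528 normalized counts in gal-3+ macrophages, 109453, 116870.0 and 98924 in SkMRMs and 157310.0, 156134 and 163481 in MDMs, and *Ctsl* and *Ctsb* were the 2 proteases called against each population. *Ctsd*, the aspartic protease cathepsin D, had 125353 to 147482 against 76618 to 80051 in MDMs and 17265 to 19886 in SkMRMs, and *Ctss*, which trims the invariant chain, had 153920.0 to 185636 against 96434 to 101368 and 24664 to 26721. In these 4 cathepsins the gal-3+ libraries lay above MDMs, and MDMs above SkMRMs, with no overlap between any 2 populations.

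Of 18 lysosomal lipid hydrolases and lipid transfer proteins, 7 lay above all others, 2 below, 5 were called higher and 1 lower, with a median of 0.67. *Pla2g15*, a lysosomal phospholipase, had 5036, 4747, 6125 and 5149.9 normalized counts in gal-3+ macrophages, 2255, 2515 and 2667 in SkMRMs and 2375, 2545 and 2257 in MDMs, so SkMRMs and MDMs held like levels and gal-3+ macrophages about a fold of 2 more. *Pld3*, which acts on nucleic acids and lipids in lysosomes, had 12882 to 14416 against 6204 to 6929 in MDMs and 2906 to 3455 in SkMRMs. *Lipa*, the acid lipase that frees cholesterol from its esters, had 12309.9 to 15643, 7135 to 9025 and 4978 to 5174 in the same order. *Smpdl3b*, a membrane-anchored phosphodiesterase that restrains Toll-like receptor signalling, ran the other way with 107, 64.0, 115 and 99.4 normalized counts in gal-3+ macrophages, 628, 595 and 667 in SkMRMs and 277, 227 and 368 in MDMs, a log2 difference of -2.16 ± 0.19 (SE, limma adjusted p = 2.4e-07).

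Of 36 genes of the lysosomal membrane and proton pump, 12 lay above all others, 1 below and 5 were called higher, with a median of 0.31. *Atp6v0d2*, the pump subunit best known from osteoclasts, had 8630.5, 9541, 9933 and 7710.3 normalized counts in gal-3+ macrophages, 381, 364 and 379 in SkMRMs and 1669.7, 2189 and 1358 in MDMs, a log2 difference of 3.48 ± 0.11 (SE, limma adjusted p = 1.5e-12). *Mcoln3*, an endolysosomal cation channel, had 195 to 271 against 101 to 139 in MDMs and 0 to 9.33 in SkMRMs. *Gpnmb*, a lysosomal glycoprotein, had 74000.3 to 90493 against 37996 to 48867 and 194 to 295, and *Cd63*, a tetraspanin of lysosomes and exosomes, had 10049 to 11771 against 3695 to 4312 and 5369 to 6358. *Cd63* was lowest in MDMs, whereas *Gpnmb* and *Mcoln3* were lowest in SkMRMs. *Atp6v0d2* was the gene of this list called against each population.

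Stretches of the promoters of 2 lysosomal members are shown because lysosomal genes are known for the E-box CACGTG, at which MiT/TFE factors such as TFEB bind, and for its extended form TCACGTGA. Of the 80 genes of the 4 lysosomal lists with a promoter, 27.5% held CACGTG within the same 300 bases, and among their 37 members above the share was 27.0%, beside 11.2% of all 11087 promoters. TCACGTGA stood in 11.2%, 8.11% and 2.04% in the same order. Both read the same on either strand, every TCACGTGA holds a CACGTG, and capitals mark CACGTG in the 65 bases shown, which lie upstream of the start (RefSeq, GRCm38.p6, 5′ to 3′ on the strand of the gene).
Glb1 (chr9:114401008-114401072, plus strand): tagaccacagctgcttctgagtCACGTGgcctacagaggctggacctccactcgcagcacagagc
Lamp1 (chr8:13159078-13159142, plus strand): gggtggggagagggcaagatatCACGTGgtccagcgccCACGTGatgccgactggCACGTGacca
The match of *Glb1* began 48 bases before the start. *Lamp1*, a major glycoprotein of the lysosomal membrane, held 3 matches, the first 61 bases before the start, and had 50182, 48445, 53869.9 and 49766 normalized counts in gal-3+ macrophages, 29727, 30552 and 26164 in SkMRMs and 37632, 36679 and 37796 in MDMs. Over all members, CACGTG stood in 10.7% of the 717 above and 14.7% of the 511 below, so the letters were not more frequent among members above than among all promoters. The AP-1 letters TGANTCA stood in 7.67% above, 6.85% below and 6.67% of all promoters, on either strand.

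Osteoclasts are the bone-resorbing relatives of macrophages. Of 22 genes in the list of MiT/TFE factors and osteoclast-like genes, 5 lay above all others (22.7%), 2 below (9.09%), 4 were called higher and 1 lower, beside 5.52% of all genes above and 5.52% below. *Acp5*, the tartrate-resistant acid phosphatase, had 3025, 3346, 3603 and 3676 normalized counts in gal-3+ macrophages, 125, 172 and 124 in SkMRMs and 1012, 921 and 832 in MDMs, a log2 difference of 3.25 ± 0.11 (SE, limma adjusted p = 3.1e-12). *Ocstamp*, a membrane protein of osteoclast fusion, had 127 to 268 against 50.6 to 99.5 in MDMs and 8.16 to 13.98 in SkMRMs. *Mmp9*, a gelatinase, was the gene called lower and 1 of the 2 below, with 50.5, 45.3, 168 and 166 normalized counts in gal-3+ macrophages, 2715, 2242 and 2651 in SkMRMs and 218, 324 and 432 in MDMs, a log2 difference of -3.30 ± 0.33 (SE, limma adjusted p = 7.3e-07). For *Mmp9* the SkMRM level was far above both mdx populations, and gal-3+ libraries mdx4 and mdx5 came within a fold of 2 of MDM mdx1.

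The lipid-handling genes that were called were higher. Of 23 apolipoprotein and cholesterol efflux genes, 7 lay above all others (30.4%, beside 5.52% of all genes), 0 below and 11 were called higher, with a median of 1.09. The share called higher over all genes was 3.16%. *Abcg1*, a cholesterol exporter, had 10232, 10876, 12411 and 10958 normalized counts in gal-3+ macrophages, 1347, 1274 and 1581 in SkMRMs and 6325, 4794 and 5169 in MDMs, a log2 difference of 2.02 ± 0.09 (SE, limma adjusted p = 2.7e-11), and *Abcg3*, a rodent-specific member of that family, had 2966 to 3996 against 839.8 to 1752. Of 28 genes of lipid uptake and storage, 7 lay above all others and 8 were called higher, among them *Lpl*, lipoprotein lipase (28916 to 40947 against 13641 to 21529 in MDMs and 7880.4 to 11405 in SkMRMs) and *Scarb1*, a lipoprotein receptor (2970.1 to 4366, 2219.9 to 2631 and 1088 to 1295). *Trem2*, a lipid-sensing receptor, had 5183, 4992, 6367 and 6085 normalized counts in gal-3+ macrophages, 544, 645 and 742 in SkMRMs and 2348, 2572 and 2354 in MDMs, a log2 difference of 2.18 ± 0.09 (SE, limma adjusted p = 2.7e-11). *Fabp4*, a fatty acid-binding protein shared by macrophages and endothelium, lay above all others (3689 to 5395 against 1149.6 to 3205) without reaching the fold used for calls. Of 29 sterol and fatty acid synthesis genes, 1 (*Scd2*, a desaturase) lay above all others (3.45%) and 2 below (6.90%), which is near the 5.52% of all genes in each direction. *Insig1*, which holds back sterol synthesis and is itself a sterol-regulated gene, had 1321, 1331, 1270.3 and 1254 normalized counts in gal-3+ macrophages, 2307, 2633 and 2086 in SkMRMs and 2378, 2851 and 2577 in MDMs, a log2 difference of -0.93 ± 0.08 (SE, limma adjusted p = 1.2e-07), just short of a fold of 2.

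Among all 17001 genes, 5.52% lay above all others, 3.16% were called higher, 4.69% lower, and 0.606% higher than each population. Of 34 lipid-associated and disease-associated macrophage genes, 17 lay above all others (50%), 0 below, and 21 were called higher, 7 of them against each population, with a median of 1.22. The list shares genes with the lysosomal and lipid lists. *Syngr1*, a vesicle protein, had 1403, 1329.7, 1856 and 1467 normalized counts in gal-3+ macrophages, 106, 113 and 77.6 in SkMRMs and 754, 565 and 525 in MDMs, a log2 difference of 2.62 ± 0.14 (SE, limma adjusted p = 5.7e-10). Of 33 genes of apoptotic cell uptake, 8 lay above all others (24.2%), 12 were called higher and 1 lower, and *Mfge8* and *Trem2* were the ones called against each population. *Axl*, a receptor tyrosine kinase for phosphatidylserine bridges, had 11233 to 13234 against 6184 to 7096 in MDMs and 1976 to 2591 in SkMRMs. *Cd300lb*, a paired activating receptor, had 1361, 1379, 1359.6 and 1217 in gal-3+ macrophages and 655 to 871 elsewhere.

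Of 42 inhibitory and activating receptors of the immune system, 8 lay above all others (19.0%) and 3 below (7.14%, near the 5.52% of all genes), 13 were called higher and 1 lower. Over all genes, 3.16% were called higher and 4.69% lower. Besides *Cd72*, *Cd22* and *Trem2*, *Lag3*, which binds MHC class II, had 211, 287, 269 and 392 normalized counts in gal-3+ macrophages, 115, 86.2 and 89.2 in SkMRMs and 23.7, 1.276 and 15.3 in MDMs, with MDM mdx4 lowest. Of 20 Fc receptors and adaptors, 5 lay above all others (25%) and 3 were called higher. The low-affinity IgG receptor genes *Fcgr2b*, *Fcgr3* and *Fcgr4* lie together on chromosome 1. *Fcgr4* had 2539 to 2798 against 1293 to 1523 in MDMs and 322 to 712 in SkMRMs, and *Fcgr3* had 15775 to 22120.4 against 10428 to 13617. All 3 lay above all others, and reads that their similar sequences share could be split between them. Of 25 adhesion genes, 3 lay above all others (12%) and 2 below (8%, near the 5.52% of all genes). *F11r*, junctional adhesion molecule A, lay above with 1036, 1409.7, 1205 and 1307 normalized counts in gal-3+ macrophages, 308, 229 and 88.4 in SkMRMs and 669, 531 and 562 in MDMs. *Ctnnd2*, a catenin, lay just below at 20.01 to 31.8 against 31.9 to 262. *Tspan13*, a tetraspanin, had 1464 to 1742 against 224 to 607 and was called against each population.

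Signals and their receptors followed. Of 37 chemokines and cytokines, 3 lay above all others and 3 below (8.11% each, near the 5.52% of all genes), while 10 were called higher and 4 lower. The shares called over all genes were 3.16% higher and 4.69% lower. *Cxcl16*, a membrane-bound chemokine that also binds oxidized lipoprotein, had 9829, 12346, 11613 and 12639 normalized counts in gal-3+ macrophages, 2151, 2292 and 1819.9 in SkMRMs and 3006, 2525 and 3185 in MDMs, a log2 difference of 2.24 ± 0.09 (SE, limma adjusted p = 1.7e-11). Of 30 chemokine and cytokine receptors, 5 lay above all others (16.7%) and 7 were called higher. *Cx3cr1*, the fractalkine receptor, had 8917, 7117, 11083 and 9799.7 normalized counts in gal-3+ macrophages, 1080.1, 905 and 1136 in SkMRMs and 3901, 4645 and 3591 in MDMs, a log2 difference of 2.16 ± 0.11 (SE, limma adjusted p = 2.0e-10). *Cxcr4*, the receptor of CXCL12, had 6359.6 to 7958 against 3596 to 3929 in MDMs and 646 to 871 in SkMRMs. *Ccr3*, an eosinophil chemokine receptor, had 69.4 to 109.8 against 19.1 to 57.5, and its call (limma adjusted p = 0.0074) was lost when any of 7 single libraries was left out, with adjusted p of 0.012 to 0.032. Of 40 growth factor and matrix genes, 9 lay above all others (22.5%), 1 below (2.5%), 15 were called higher and 3 lower. *Pdgfb*, a mitogen of mesenchymal cells, had 844, 707, 918 and 898 normalized counts in gal-3+ macrophages, 255, 376 and 209 in SkMRMs and 196, 107 and 102 in MDMs, and *Gdf15*, a stress-induced cytokine, had 3236, 3302, 4511 and 4207 normalized counts in gal-3+ macrophages, 859.7, 1531 and 737 in SkMRMs and 1010.3, 1345 and 1354 in MDMs. Both were called against each population. *F13a1*, coagulation factor XIII, lay below all others with 15292 to 18891 against 30435 to 39112 in MDMs and 119733 to 123632 in SkMRMs.

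Chemokines that attract monocytes, 3 *Ifitm* genes and many interferon response genes lay below both populations. *Ccl2* and *Ccl7*, ligands of the monocyte receptor CCR2, lie next to each other on chromosome 11 (82035571 to 82037453 and 82045712 to 82047525). *Ccl2* had 8968, 6604, 7867 and 9540.4 normalized counts in gal-3+ macrophages, 20176, 21685 and 26704 in SkMRMs and 17962, 25886 and 28783 in MDMs, a log2 difference of -1.51 ± 0.12 (SE, limma adjusted p = 7.6e-08). *Ccl7* had 5795, 4687, 4920.1 and 6052 normalized counts in gal-3+ macrophages, 15792, 15467 and 20254 in SkMRMs and 9384, 12120.1 and 14805 in MDMs, and *Ccl24*, an eosinophil attractant on chromosome 5, had 494, 492, 462 and 609 normalized counts in gal-3+ macrophages, 3602, 3651 and 4914 in SkMRMs and 1051, 1719 and 1505 in MDMs. All 3 chemokines were called lower than each population, and for *Ccl2* SkMRMs and MDMs overlapped. *Fosl1*, an AP-1 subunit named after its values were seen, had 340.1 to 428 in gal-3+ macrophages against 999 to 1134 in MDMs and 1288 to 2024 in SkMRMs.

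*Ifitm6*, *Ifitm3* and *Ifitm2* encode interferon-induced membrane proteins from a cluster on chromosome 7, and all 3 lay below all other libraries. *Ifitm6* had 56.0, 38.7, 10.3 and 26.3 normalized counts in gal-3+ macrophages, 199, 193 and 258 in SkMRMs and 659, 663 and 763 in MDMs, a log2 difference of -3.75 ± 0.34 (SE, limma adjusted p = 2.6e-07), with MDMs highest. *Ifitm3*, which blocks virus entry from endosomes, had 3366, 2894, 2911 and 3311 normalized counts in gal-3+ macrophages, 6491, 5684 and 7453 in SkMRMs and 6946, 8369 and 8956 in MDMs, a log2 difference of -1.22 ± 0.09 (SE, limma adjusted p = 1.4e-08). *Ifitm2* had 2704 to 3222 against 4438 to 5246 and did not reach a fold of 2. The copies are similar in sequence, and reads shared between them could be split by the counting.

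Of 39 interferon response genes in the table, 15 lay below all others and 10 were called lower, beside 5.52% of all genes below and 4.69% called lower. The median log2 difference of the list was -0.54. *Mx1*, an antiviral GTPase, had 929.8, 802, 671 and 979.9 normalized counts in gal-3+ macrophages, 2115, 1721 and 2253 in SkMRMs and 1497, 1669 and 2077 in MDMs, a log2 difference of -1.16 ± 0.12 (SE, limma adjusted p = 1.1e-06), and *Isg20*, an exonuclease, had 85.5 to 152 against 210.4 to 413. These 2 genes were called lower than each population. *Isg15*, a ubiquitin-like modifier, had 736, 914, 617 and 991 normalized counts in gal-3+ macrophages, 1883, 1646 and 1987 in SkMRMs and 1131, 1423 and 1653 in MDMs and a log2 difference of -0.99, just short of the fold used for calls, which it passed under upper-quartile scaling (-1.03), with the replicate block (-1.02) and without any of 4 single libraries (-1.03 to -1.09). *Ifi204*, a DNA sensor, had 8595, 8576, 8060.0 and 7973 normalized counts in gal-3+ macrophages, 13244, 12926 and 15056 in SkMRMs and 12639.6, 14114 and 14375 in MDMs, so SkMRMs and MDMs overlapped and gal-3+ libraries lay close together below them. Summed levels were 81907 to 87011 in gal-3+ macrophages, 172850.5 to 188594 in SkMRMs and 92801 to 113988 in MDMs.

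The promoter of *Isg15* is shown because 64.5% of the 31 interferon response genes with a promoter held GAAANNGAA, the core of the interferon-stimulated response element, on either strand, beside 8.96% of all promoters. Among the 11 list members below all others with a promoter the share was 45.5%, and among all 511 members below it was 9.20%. Capitals mark both matches, the first of which begins 78 bases before the start (RefSeq, GRCm38.p6, 65 bases, 5′ to 3′ on the minus strand).
Isg15 (chr4:156200854-156200918, minus strand): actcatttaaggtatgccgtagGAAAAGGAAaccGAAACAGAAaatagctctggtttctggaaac

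**Figure D3:**
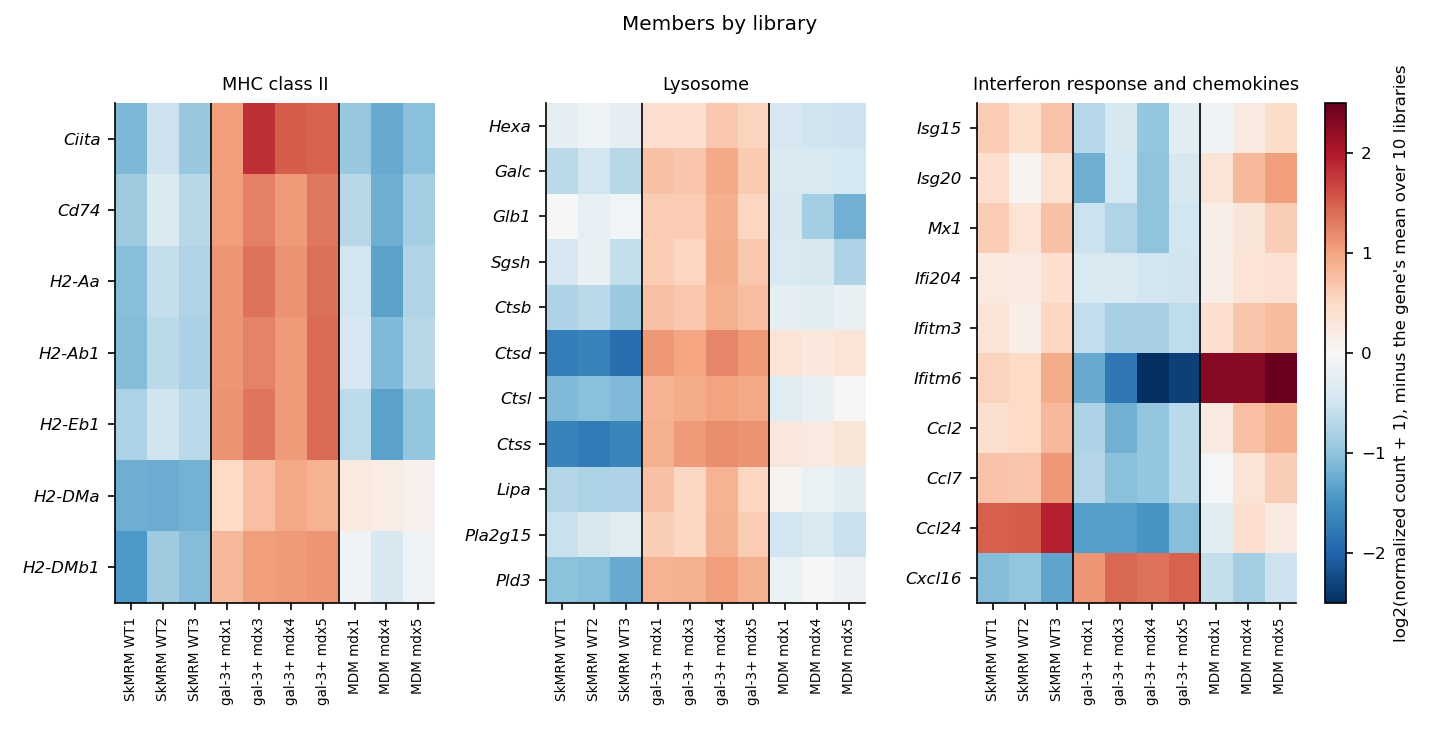
Log2(normalized count + 1) minus the mean over 10 libraries of each gene (color scale, red above and blue below that mean) for MHC class II genes, lysosomal genes, and interferon response and chemokine genes. Columns are the 10 libraries, and vertical lines part SkMRMs, gal-3+ macrophages and MDMs. The 4 gal-3+ columns are red throughout the MHC class II and lysosomal panels and blue for the third panel, with *Cxcl16* as the exception.

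Of 23 integrins 4 lay above all others (17.4%), and of 22 complement genes 4 lay above (18.2%) and 1 below (4.55%), beside 5.52% of all genes in each direction. Among the complement genes 6 were called higher and 4 lower, beside 3.16% and 4.69% of all genes, with a median of -0.15. Their sum was 204868 to 215058 in gal-3+ macrophages, between MDMs (135092 to 145988) and SkMRMs (225441 to 229251). Of 33 macrophage transcription factors, 3 lay above all others (9.09%), with *Irf8*, a factor of the monocyte lineage, at 5236 to 8822 against 2280.3 to 4719 and *Cebpa*, a factor of myeloid differentiation that was not called, at 8866 to 11024 against 3308 to 7114. The call of *Irf8* was lost without gal-3+ mdx4, at a log2 difference of 0.93. Of 42 cell cycle genes, 4 lay below all others (9.52%), among them *Ccnd2*, cyclin D2 (643 to 708 against 905 to 1449), while 1 was called higher and 0 lower. The median log2 difference of the cell cycle list was 0.44. Its sum was 41810 to 49454 in gal-3+ macrophages, between MDMs (25721 to 27435) and SkMRMs (67825 to 74465). Of 38 actin genes, 2 lay above all others (5.26%), with *Myo1e*, a myosin of phagocytic cups, at 5839, 4743, 4928 and 4532 normalized counts in gal-3+ macrophages, 2334, 1722 and 2267 in SkMRMs and 1395, 1763 and 1606 in MDMs, and 3 below (7.89%), with *Gmfg*, an actin-branch remover, at 1167 to 1294 against 1929 to 2350.0. For the 6 galectins and the 34 nuclear genes of oxidative phosphorylation, 0 members lay above or below all others. In glycolysis and hypoxia response 1 of 28 was called higher and 1 lay below all others (3.57%). Of 29 resident macrophage genes, 7 were called lower and 2 higher. They summed to 264821 to 318798 in gal-3+ macrophages, between MDMs (114930 to 122455.5) and SkMRMs (735344 to 756532). Of 31 monocyte genes 4 lay below all others (12.9%) and 1 above (3.23%), 7 were called higher and 5 lower. Only 1 was called higher and 2 lower than each population. Their sum was 352376 to 400379 in gal-3+ macrophages, between SkMRMs (135795.5 to 142795) and MDMs (696278 to 854173).

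**Figure D4:**
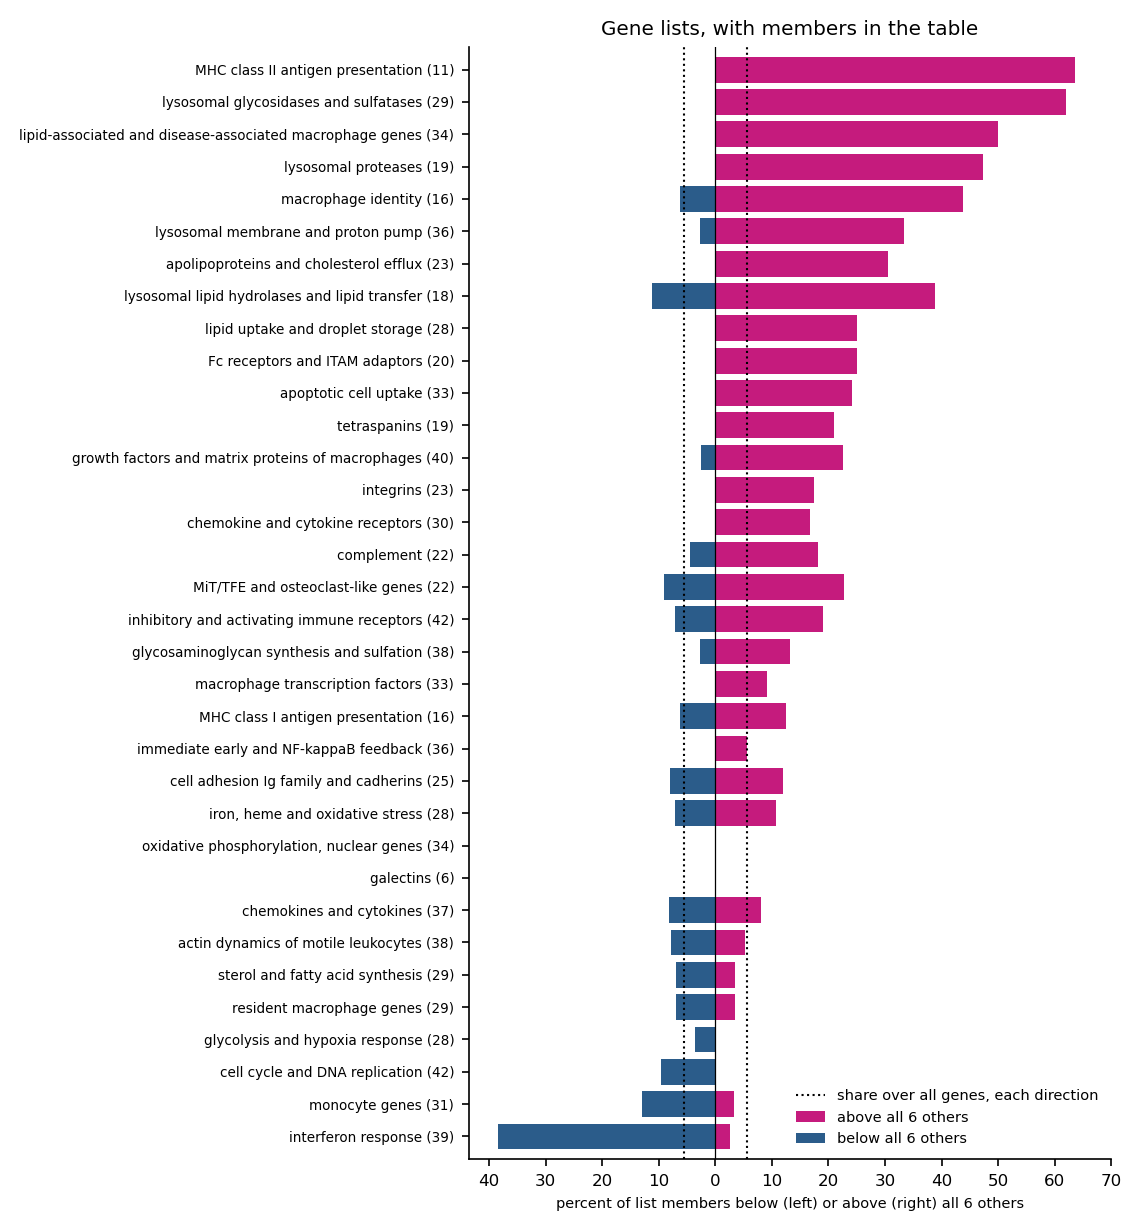
Percent of each gene list (number of genes in the table in brackets) whose 4 gal-3+ libraries lay above all 6 other libraries (bars to the right) or below them (bars to the left). Dotted lines mark the share over all 17001 genes, 5.52% in each direction. The MHC class II and glycosidase lists have the longest bars to the right, at 63.6% and 62.1%, and the interferon list the longest to the left, at 38.5%.

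Members below differed from members above in the kind of gene. This split was made after the names of the members below were seen. Of the 938 members above, 896 are annotated as protein-coding, and of the 938 below 593 are. Of 2900 genes of other annotated types, 19 lay above and 303 (10.4%) below all others. The type TEC, given to loci that still await experimental evidence and have no known protein, held 677 genes, of which 1 lay above and 119 (17.6%) below, with 157 called lower and 2 higher. The median log2 difference of TEC genes was -1.31, at -1.67 from SkMRMs and -1.03 from MDMs. Sense intronic genes had 18 of 115 below and a median of -1.33, whereas protein-coding genes had 593 of 13435 below and a median of 0.05. TEC genes took 0.0881%, 0.153%, 0.117% and 0.0989% of normalized counts in gal-3+ macrophages, 0.253%, 0.270% and 0.344% in SkMRMs and 0.208%, 0.175% and 0.184% in MDMs, so gal-3+ mdx3 came closest to the others. *Gm37084*, a TEC gene on chromosome 1 from 131086252 to 131092149, had 456, 939, 649.5 and 653 normalized counts in gal-3+ macrophages, 1500.0, 1889 and 2433 in SkMRMs and 2108, 1651 and 1994 in MDMs, a log2 difference of -1.54 ± 0.16 (SE, limma adjusted p = 1.4e-06). *Kcnq1ot1*, a nuclear RNA antisense to *Kcnq1*, had 577, 1106, 675 and 645 normalized counts in gal-3+ macrophages, 1871, 1769.7 and 2469.9 in SkMRMs and 1932, 1953 and 1804 in MDMs and was named after its values were seen. Of the 15 members below with the largest difference from the nearer population, 5 are TEC genes and 5 are protein-coding, with *Mroh2a* (0, 44.0, 55.4 and 18.5 in gal-3+ macrophages against 72.7 to 405) listed at 0 in gal-3+ mdx1. Its call was lost with DESeq2 on recovered reads (adjusted p = 0.023) and without MDM mdx5 (limma adjusted p = 0.010). The sources used here give no strand setting for the counting, so reads of intronic and antisense genes cannot be told apart from reads of their host genes. Leaving out gal-3+ mdx3 raised the genes called lower from 798 to 903, and those lower than each population from 173 to 255. Leaving out MDM mdx1 brought the latter to 95.

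**Figure D5:**
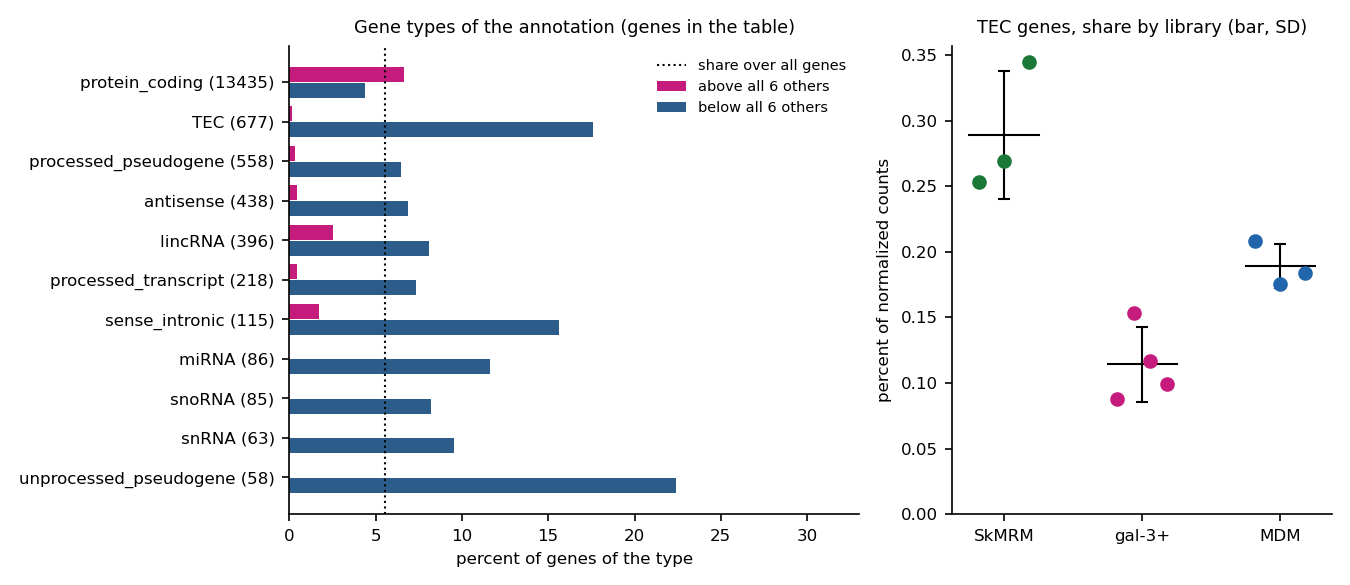
Left, percent of genes of each annotated type (number in the table in brackets) above or below all 6 other libraries, with the share over all genes as a dotted line. Right, percent of all normalized counts in TEC genes by library, with means (lines) and SDs (bars). TEC genes lie below in 17.6% and above in 0.148%, and their share is 0.0881% to 0.153% in the 4 gal-3+ libraries and 0.175% to 0.344% in the 6 others.

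Markers of other cells differed between the populations. Of 18 endothelial markers, 2 lay above all others (11.1%) and 6 were called higher, beside 5.52% and 3.16% of all genes. *Kdr*, a VEGF receptor that lay above without being called, had 2328, 2137, 1860.3 and 1941 normalized counts in gal-3+ macrophages, 1737, 1416 and 682 in SkMRMs and 890.2, 828 and 1359.7 in MDMs, and SkMRM WT3 was lowest. The summed level was 22500.2 to 30496 in gal-3+ macrophages, 10348 to 25699 in SkMRMs and 13761 to 15315 in MDMs. Of 11 markers of smooth muscle and pericytes, 2 lay above all others (18.2%) and 3 were called higher, with *Rgs5* at 3589 to 4808 against 643 to 3462 and *Abcc9*, a channel subunit of pericytes, at 563 to 674 against 98.2 to 529.6. Their summed level was 10909 to 13717 in gal-3+ macrophages, 7690.2 to 13691 in SkMRMs and 3188 to 3690.4 in MDMs. Of 22 fibroblast markers, which fibro-adipogenic progenitors share, 3 lay below all others (13.6%) and 9 were called lower, and of 11 tenocyte markers 7 were called lower. Over all genes, 5.52% lay below and 4.69% were called lower. *Dcn*, which encodes the matrix proteoglycan decorin, had 619.8 to 1062 in gal-3+ macrophages, 1063 to 1315 in MDMs and 8529 to 13948 in SkMRMs, and *Lum*, lumican, had 232 to 347, 471 to 515 and 536 to 919. Summed fibroblast markers were 85108 to 121517 in gal-3+ macrophages, 612223 to 1432101 in SkMRMs and 105112 to 118007 in MDMs. The call of *Lum* was lost under TMM scaling and with edgeR (log2 difference -0.96 in each) and without SkMRM WT3 (-0.92), gal-3+ mdx4 (-0.90) or MDM mdx4 (-0.99). *Cd4*, a co-receptor of T cells that some macrophages also express, lay above all others (1446 to 1999 against 171 to 1239.9), while the T cell gene *Cd3e*, chosen after its values were seen, was listed at 0 in 3 of the 4 gal-3+ libraries and in SkMRMs WT2 and WT3. Of the marker lists of Schwann cells, neutrophils, mast cells, erythroid cells and platelets, 0 genes lay above or below all others. The part of RNA from these cells in the members named above was not tested.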

How the data were processed

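Bulk RNA from 10 sorted macrophage libraries was made into stranded total RNA libraries. Per the study's methods and the submitters' processing notes, the authors aligned reads to mm10 with TopHat2 (2.0.14), counted them with HTSeq (1.99.2) and normalized with DESeq2 (1.28.1). The deposited values are a signal, counts divided by a size factor per library. The authors' fold changes and p-values, in the same table, were not used. Division by the step of 1 read gave whole reads for 100% of values (tolerance 0.001), and their sums are the depths given. Depth sets counting error only.

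Differences were fitted with limma (3.58.1, R 4.3.3; trended empirical Bayes, 7 residual degrees of freedom) on log2(normalized count + 1) over 17001 genes with Benjamini-Hochberg adjustment. The minimum of 10 in 3 libraries removed 0 genes. A gene was called at a fold of at least 2 and adjusted p under 0.01. Alternatives were count tests on the recovered reads with edgeR (4.0.16) and with DESeq2 (1.42.0), other scalings, pseudocounts of 0.5 and 5, a minimum of 50, a replicate block and leaving out each library. The fit was tested on simulated data. Promoters came from RefSeq (GRCm38.p6), for 11087 genes matched by symbol, and gene types and positions from GENCODE, with 16335 genes matched to 1 entry. A name that a spreadsheet had turned into a date stood in 22 rows.

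Members and lists were chosen with earlier results of these data known. Named genes were the markers and sort genes, the 15 farthest from the nearer population in each direction (mean of at least 100), up to 4 non-overlapping genes per list or otherwise up to 2, and 3 on each side of the rule. A further 19 were chosen after their values were seen: *Cd74*, *H2-DMa*, *H2-DMb1*, *Apoc1*, *Apoc2*, *Kcnq1ot1*, *Fosl1*, *Eif2s3y*, *Kdm5d*, *Uty*, *Ddx3y*, *Zbtb46*, *Flt3*, *Xcr1*, *Cd79a*, *Ms4a1*, *Acta1*, *Ckm* and *Cd3e*. A few results on withheld items are not reported here.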

Additional observations from a re-analysis of the deposited data

Results flagged for a closer look

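In 6 of 125 genes named in the text (4.80%), the gal-3+ library farthest from its group exceeded Dixon's 95% critical value for 4 samples, and chance alone flags about 1 in 20. *Pld3* had 14416 normalized counts in gal-3+ mdx4, with the other 3 libraries at 12882 to 13005. *Scd2* had 576 in mdx3, with the others at 802 to 846. *Cd300lb* had 1217 in mdx5, with the others at 1359.6 to 1379. *Abcc9* had 563 in mdx5, with the others at 667 to 674. *Dpp4* had 86.2 in mdx4 against 127 to 132 in the others. *Cd3e* had 9.23 in mdx4 and was listed at 0 in the other 3 libraries.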

How the results depend on the processing

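The 537 higher and 798 lower genes of the contrast became 68 and 64 when the 6 other libraries were fitted as 1 group. They became 1421 and 1975 at a fold of 1.5 and adjusted p under 0.05, and 2017 and 1756 at adjusted p under 0.01 with no fold minimum. The 103 and 173 genes called against each population became 340 and 571, and 471 and 471, at these thresholds. Leaving out 1 library gave 460 to 550 higher and 609 to 903 lower, 1020 to 1188 genes above and 1015 to 1406 below all others, and 85 to 114 higher and 95 to 255 lower than each population. With fewer libraries, fewer have to be passed. TMM scaling gave 1148 above and 785 below, and upper-quartile scaling 822 and 1032. Where gal-3+ macrophages and MDMs carried a shared mdx label, correlations of deviations were -0.0279 (mdx1), 0.0102 (mdx4) and 0.0253 (mdx5). Cells sorted from 1 mouse need not deviate together, so these values cannot decide whether a shared label means a shared mouse. Pairing was left unresolved. With the replicate block, 532 were called higher and 930 lower, and 95 and 238 against each population. *Ddx3y* turned to -0.005974 without SkMRM WT3, and *Cd79a* to 0.3756 without gal-3+ mdx3, neither being called. The remaining leave-one-out log2 differences reached 2.82 for *Ddx3y* and -1.165 for *Cd79a*. *Xist* lost its call with edgeR (adjusted p = 0.24), and *Xcr1*, not called, passed under 5 alternatives. Causes were not tested. Depth limits genes near 0, such as *Cd3e*, where single reads set the values.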
